A study of Mus musculus with 12 samples.

Results

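The genes described here are the 31 that carry out glycolysis and move glucose and lactate across the cell membrane, together with the kinases and the enzyme subunit that set the entry of pyruvate into mitochondria. They were chosen by symbol: a row of the count table belonged if its gene name was on a list of the pathway's enzymes and carriers. The rule uses no measured value, but the list was drawn up with earlier results of these data known. All 31 were found among the 19630 named genes of the table, and all 31 passed the filter on low counts. Isoenzymes, which are different genes for the same reaction, were compared with each other.

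Total RNA was sequenced from E14, a mouse embryonic stem cell (mESC) line, and from epiblast-like cells (EpiLCs) into which it was converted. Cells of every group re-expressed EPOP, a protein that associates with Polycomb repressive complex 2, either as wild type (WT) or as a mutant, but which residues the mutant changes is not stated in the labels. The 4 groups of 3 libraries were WT mESC, mutant mESC, WT EpiLC and mutant EpiLC. The mESCs were kept on gelatin in serum-free 2i/LIF medium with 1 µM of the MEK inhibitor PD0325901, 3 µM of the GSK3 inhibitor CHIR99021 and LIF, which holds cells in the naive state. The EpiLCs were made on fibronectin in N2B27 medium with activin A at 20 ng/ml, bFGF at 12 ng/ml and knockout serum replacement, without those inhibitors. The states therefore differ in medium, in substrate and in cell identity at once, and these cannot be told apart. Cells lacking EPOP were not analysed here.

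Libraries held 7714164 to 10652151 counts in named genes. Epop mRNA did not differ between the proteins (472.9 CPM in WT and 468.7 in mutant mESCs, 208.8 and 206.6 in EpiLCs; CPM are counts scaled to library size), so its level is no check on the genotype labels. The table gives the non-WT libraries a code name of unstated meaning. It was read as the mutant because the labels hold WT and mutant EPOP only, and every direction of mutant against WT rests on that reading. The summed CPM of 10 naive markers was 5202 to 5403 in WT mESCs, 4981 to 5073 in mutant mESCs, 615.5 to 626.4 in WT EpiLCs and 345.3 to 350.3 in mutant EpiLCs. The sum of 8 epiblast-like markers was 188.8 to 207.6, 175.8 to 179.3, 1452 to 1507 and 1620 to 1647 in the same order. The sum of 6 endoderm markers was 32.5 to 38.3 in WT EpiLCs and 8.03 to 12.8 in mutant EpiLCs, and at most 14.6 in mESCs. The sum of 8 fibroblast markers was at most 8.64 in every library, and Col3a1 had no count in any. RNA was taken from whole cultures, in which fewer cells of a type and less RNA per cell cannot be told apart. Nothing in the labels says that the 3 replicates of a group came from separate cultures, and p-values then measure only the spread between libraries, which may be technical.

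Glycolysis converts glucose to pyruvate in the cytosol. Glucose enters through carriers of the Slc2a family and is trapped by hexokinases. Phosphofructokinases commit the sugar to breakdown, and the bifunctional Pfkfb enzymes make or remove the metabolite that activates them. Pyruvate is then reduced to lactate by lactate dehydrogenase and leaves through the proton-coupled carriers of the Slc16a family, or is oxidised in mitochondria by pyruvate dehydrogenase, which the Pdk kinases switch off. Naive mESCs are known to use both glycolysis and respiration, and cells of the primed, post-implantation type are known to depend more on glycolysis. Many of these genes are textbook targets of the hypoxia-inducible factors and of Myc, which bind short sites built around ACGTG or GCGTG, and CACGTG, respectively.

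Of the 5 genes on which the results turn, the lactate carrier Slc16a3 and the kinase Pdk1 moved in opposite directions between genotypes. The phosphofructokinase Pfkp fell most between states, and the others are both lactate dehydrogenase genes. The sequences shown lie before a transcript start of these genes. Each is the first listed window of 250 bases upstream of a RefSeq start in GRCm38.p6, written 5′ to 3′ on the gene's strand, with every ACGTG and GCGTG on either strand in capitals (CACGT and CACGC are their complements). The windows are chr11:120948817-120949066 on the plus strand for Slc16a3, chr2:71872974-71873223 on the plus strand for Pdk1, chr13:6648772-6649021 on the minus strand for Pfkp, chr7:46845554-46845803 on the plus strand for Ldha and chr6:142507958-142508207 on the minus strand for Ldhb.
Slc16a3: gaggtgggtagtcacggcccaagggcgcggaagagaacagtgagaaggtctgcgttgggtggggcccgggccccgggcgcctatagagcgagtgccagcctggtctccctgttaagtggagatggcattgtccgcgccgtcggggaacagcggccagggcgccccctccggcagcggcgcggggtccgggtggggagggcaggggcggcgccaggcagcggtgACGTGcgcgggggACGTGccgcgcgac
Pdk1: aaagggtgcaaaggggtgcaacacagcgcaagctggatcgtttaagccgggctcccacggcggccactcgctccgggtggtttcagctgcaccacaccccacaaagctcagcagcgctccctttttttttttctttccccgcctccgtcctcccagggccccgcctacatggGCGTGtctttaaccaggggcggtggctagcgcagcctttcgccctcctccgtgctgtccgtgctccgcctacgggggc
Pfkp: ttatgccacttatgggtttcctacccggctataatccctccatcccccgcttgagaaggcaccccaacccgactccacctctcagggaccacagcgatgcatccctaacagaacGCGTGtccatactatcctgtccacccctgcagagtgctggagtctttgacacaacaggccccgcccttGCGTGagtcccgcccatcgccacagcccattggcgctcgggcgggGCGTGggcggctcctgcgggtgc
Ldha: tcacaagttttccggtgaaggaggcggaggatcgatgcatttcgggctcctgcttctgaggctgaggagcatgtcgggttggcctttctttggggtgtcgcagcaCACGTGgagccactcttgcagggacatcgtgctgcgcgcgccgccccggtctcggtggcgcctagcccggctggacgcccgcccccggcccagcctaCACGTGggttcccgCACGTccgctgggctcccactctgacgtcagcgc
Ldhb: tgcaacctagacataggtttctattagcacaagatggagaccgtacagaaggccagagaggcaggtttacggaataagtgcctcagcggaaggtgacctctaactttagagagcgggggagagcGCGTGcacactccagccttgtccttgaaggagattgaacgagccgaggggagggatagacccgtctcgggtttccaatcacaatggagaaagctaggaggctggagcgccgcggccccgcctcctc
The Ldha window shown held 5 matches to ACGTG over both strands, since each of its 2 CACGTG reads as ACGTG either way. The Slc16a3 window held 2 matches to ACGTG, and the windows shown of Pfkp, Pdk1 and Ldhb held 3, 1 and 1 matches to GCGTG. A further Ldha window, at another start, held 1 match to GCGTG and none to ACGTG, and a further Pdk1 window held neither. The annotated genes Slc16a3 and Ldha begin further upstream, at chr11:120948480 and chr7:46841475, so the windows shown for them lie within the gene. The Pfkp window overlaps its annotated gene, which begins at chr13:6648777. RefSeq windows were found for 30 of the 31 genes, 46 windows in all. ACGTG stood in 39.1% of these 46 and in 16.6% of all 32851 windows of the same length, GCGTG in 54.3% and 28.2%, and CACGTG in 13% and 6.02%. The median GC content was 59.8% in the 46 windows and 52.4% in all. A match is a description of the letters, and binding was not measured.

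Levels per length (the authors' TPM, which scales counts by gene length and library size) spanned more than 3 orders of magnitude among the 31 genes. Gapdh, which oxidises glyceraldehyde 3-phosphate, was the most abundant in each group, at 3643 ± 51 TPM (SD, n = 3) in WT mESCs and 3423 ± 147 in WT EpiLCs. Pkm, the pyruvate kinase gene whose splice forms are summed in a gene count, was next, at 1787 ± 16 TPM in WT mESCs and 2440 ± 13 in WT EpiLCs. In WT mESCs Aldoa (1303 ± 27 TPM) and Eno1 (1300 ± 36 TPM) followed and did not differ beyond their spread. Among the lowest, Pdk4 stood at 1.97 ± 0.35 TPM, Eno2 at 2.47 TPM and Pfkfb2 at 3.46 TPM in WT mESCs. The 31 genes together held 12817 to 12910 CPM in WT mESCs and 12828 to 13302 CPM in WT EpiLCs, and these ranges overlap. In mutant cells the sum was 12415 to 12438 CPM in mESCs and 13175 to 13603 CPM in EpiLCs. The summed level was therefore nearly equal between states in WT cells while single genes moved several-fold in each direction.

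**Figure D1:**
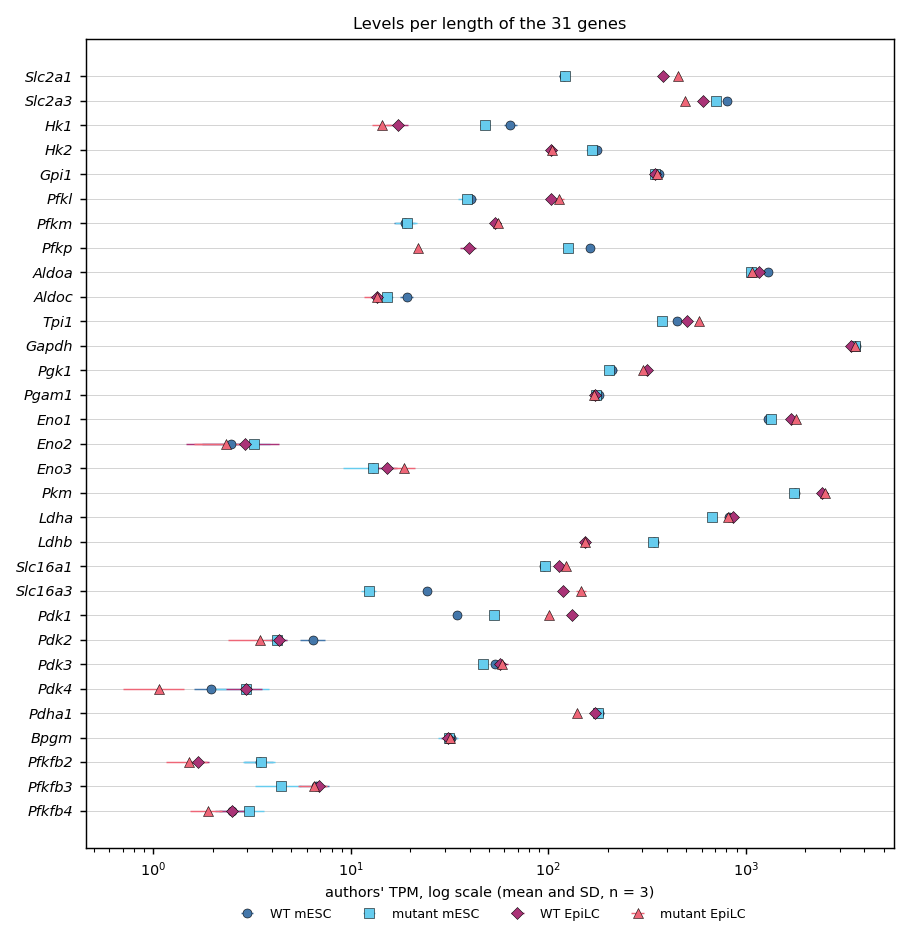
Mean level per length of the 31 genes in the 4 groups (x axis: the authors' TPM on a log scale; whiskers: SD, n = 3; genes in pathway order on the y axis). Gapdh and Pkm lie at the right, the Pfkfb genes, Eno2, Pdk2 and Pdk4 at the left, and the points of Slc2a1, Hk1, Pfkp, Slc16a3 and Pdk1 are spread the widest.

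EpiLCs were compared with mESCs within each genotype, which asks how the pathway differs between the naive and the epiblast-like state. In WT cells 22 of the 31 genes changed, 9 higher and 13 lower in EpiLCs, beside 62.7% of all 13879 genes tested, 31.7% higher and 31% lower (edgeR quasi-likelihood test, adjusted p under 0.05). Of these 22, 9 changed at least 2-fold, beside 21.1% of all genes. The median log2 fold change of the 31 genes was -0.03, against 0.01 over all genes. In mutant cells 14 rose and 11 fell, beside 66% of all genes, 33.4% higher and 32.6% lower, and 9 changed at least 2-fold, beside 25.1%. Across genotypes, 9 genes (29%) rose in both, 9 (29%) fell in both and 0 went opposite ways, beside 27%, 26.3% and 0.367% of all genes. By genotype, the called share of the 31 was 71.0% in WT cells, with 29% higher and 41.9% lower, and 80.6% in mutant cells, with 45.2% higher and 35.5% lower. These counts were not tested against the background, and what follows concerns which isoenzyme of each step moved.

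At the point of glucose entry the carriers moved in opposite directions. Slc2a1, a widely expressed basal glucose carrier, stood at 157.9, 145.9 and 148.0 CPM in the 3 WT mESC libraries and at 447.1, 470.0 and 442.5 CPM in WT EpiLCs. Slc2a3, a carrier of high affinity known from neurons and the early embryo, stood at 1572, 1551 and 1519 CPM in WT mESCs and at 1114, 1116 and 1107 CPM in WT EpiLCs. Neither gene's groups overlap. The log2 fold change was 1.59 ± 0.04 (SE; edgeR adjusted p = 1.03e-66) for Slc2a1 and -0.48 ± 0.03 (edgeR adjusted p = 1.73e-27) for Slc2a3. In mutant cells Slc2a1 rose by 1.83 ± 0.04 and Slc2a3 fell by 0.60 ± 0.03 on the log2 scale. In the authors' TPM, Slc2a3 remained the higher of the 2 in each group, at 608.3 TPM against 381.6 TPM for Slc2a1 in WT EpiLCs. That ranking per length rests on gene lengths that are not stated.

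Both hexokinases fell. Hk1, the hexokinase of most tissues, stood at 152.1, 137.5 and 134.8 CPM in WT mESCs and at 37.3, 40.0 and 31.1 CPM in WT EpiLCs. Hk2, the form induced in muscle, fat and tumour cells, stood at 467.3, 476.1 and 482.1 CPM in WT mESCs and at 280.1, 262.9 and 249.5 CPM in WT EpiLCs. The log2 fold changes were -1.96 ± 0.07 for Hk1 (edgeR adjusted p = 1.57e-51) and -0.85 ± 0.04 for Hk2 (edgeR adjusted p = 3.76e-39), with separate groups for both. In mutant cells they were -1.80 ± 0.07 and -0.74 ± 0.04. Gpi1, which interconverts the hexose phosphates, differed by a log2 fold change of only -0.14 ± 0.04 in WT cells (edgeR adjusted p = 0.000962), and in mutant cells by -0.04 ± 0.04, which did not pass the test (edgeR adjusted p = 0.353).

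The 3 phosphofructokinase genes changed places. Pfkp, the platelet form, stood at 328.3, 332.3 and 333.0 CPM in WT mESCs and at 74.0, 84.8 and 71.1 CPM in WT EpiLCs. Pfkl, the liver form, stood at 73.4, 77.8 and 71.0 CPM in WT mESCs and at 184.8, 173.3 and 171.5 CPM in WT EpiLCs. Pfkm, the muscle form, stood at 31.4, 27.8 and 25.1 CPM in WT mESCs and at 78.4, 75.7 and 73.1 CPM in WT EpiLCs. Every mESC library lies above every EpiLC library for Pfkp and below for the other two. Pfkp fell by 2.11 ± 0.05 (edgeR adjusted p = 5.08e-72), and Pfkl rose by 1.25 ± 0.06 (edgeR adjusted p = 3.77e-43) and Pfkm by 1.43 ± 0.08 (edgeR adjusted p = 9.33e-34) on the log2 scale. In mutant cells the log2 fold changes were -2.59 ± 0.06, 1.48 ± 0.06 and 1.45 ± 0.08 in the same order. Exons of Pfkp share 5.58% of their bases with Pitrm1 on the opposite strand, and the strand setting of the counting was not stated. Pitrm1 rose between states by 0.16 ± 0.05 in WT cells, opposite to Pfkp.

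**Figure D2:**
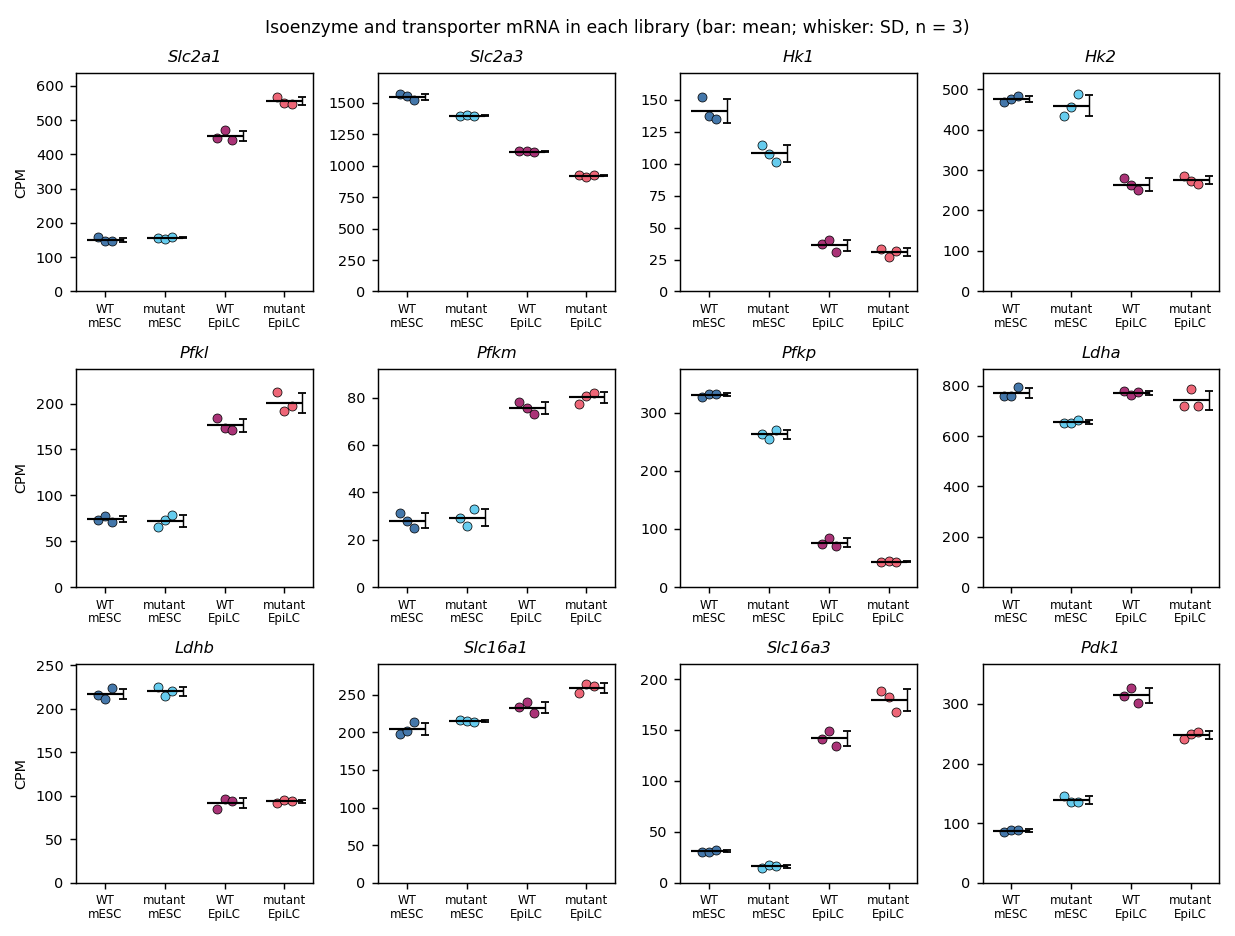
CPM of 12 isoenzyme and carrier genes in each library (y axis from 0; points: libraries; horizontal bars: means; whiskers: SD, n = 3). Slc2a1, Pfkl, Pfkm, Slc16a3 and Pdk1 are higher in EpiLCs and Slc2a3, Hk1, Hk2, Pfkp and Ldhb in mESCs, with no overlap between the states. For Slc16a3 and Pdk1 the mutant points lie on opposite sides of the WT points in the 2 states.

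The enzymes of the lower trunk of the pathway, which include its most abundant, moved less than 2-fold between states. Pgk1, the first ATP-forming enzyme, stood at 178.9, 183.3 and 202.2 CPM in WT mESCs and at 262.3, 264.7 and 272.5 CPM in WT EpiLCs, a log2 fold change of 0.50 ± 0.05 (edgeR adjusted p = 6.55e-19). Pkm stood at 2256, 2235 and 2299 CPM in WT mESCs and at 2897, 2955 and 2935 CPM in WT EpiLCs, a log2 fold change of 0.37 ± 0.03 (edgeR adjusted p = 5.67e-22). The groups of both genes are separate. Eno1, the main enolase, rose by 0.31 ± 0.03 on the log2 scale. Its sequence is shared over 1736 bases at 99.5% identity with Eno1b, which held 1.31 to 1.34 counts for each count of Eno1 in every library and rose by 0.29 ± 0.03, so how reads were divided between these copies is uncertain. Aldoa, the aldolase of most tissues, fell by 0.24 ± 0.03, Gapdh fell by 0.17 ± 0.03, and Pgam1, the phosphoglycerate mutase, fell by 0.14 ± 0.05 on the log2 scale in WT cells. Gapdh shares near-identical stretches with 49 other annotated genes, 1 of which is in the table, and its level is uncertain to that extent. The same limit holds for Pgk1, with 3 such genes, and for Pgam1, Pkm, Tpi1 and Gpi1, with 1 each, none of them in the table. Aldoc, the aldolase known from brain, held 15.2 to 17.2 CPM in WT mESCs and 9.81 to 11.6 CPM in WT EpiLCs, and fell by 0.58 ± 0.15. Tpi1, which interconverts the triose phosphates, differed by 0.09 ± 0.04 in WT cells and did not pass the test (edgeR adjusted p = 0.0514), and it rose by 0.54 ± 0.04 in mutant cells. The Pgam1 call ended without WT mESC replicate 3 (edgeR adjusted p = 0.1) or WT EpiLC replicate 2 (0.101).

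At the end of the pathway the 2 lactate dehydrogenase genes parted. Ldha, whose subunit favours pyruvate reduction, stood at 759.0, 761.2 and 796.3 CPM in WT mESCs and at 780.9, 764.7 and 774.1 CPM in WT EpiLCs. Ldhb, whose subunit favours lactate oxidation, stood at 215.5, 211.4 and 223.7 CPM in WT mESCs and at 84.8, 96.6 and 93.5 CPM in WT EpiLCs. The Ldha libraries of the 2 states overlap, with a log2 fold change of 0.00 ± 0.04 (edgeR adjusted p = 0.961), and the Ldhb groups are far apart, with -1.24 ± 0.05 (edgeR adjusted p = 7.68e-47). In mutant cells Ldha rose by 0.18 ± 0.04 and Ldhb fell by 1.24 ± 0.05.

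Among the carriers of lactate, Slc16a3, a low-affinity exporter known from strongly glycolytic cells, had the largest rise of the 31 genes. It stood at 30.0, 30.0 and 31.9 CPM in WT mESCs and at 141.6, 148.9 and 134.6 CPM in WT EpiLCs, a log2 fold change of 2.21 ± 0.07 (edgeR adjusted p = 7.42e-61). Slc16a1, the widely expressed carrier of lactate and pyruvate, stood at 197.7, 201.9 and 214.3 CPM in WT mESCs and at 233.8, 240.0 and 225.8 CPM in WT EpiLCs, a log2 fold change of 0.19 ± 0.05 (edgeR adjusted p = 0.000138). The groups do not overlap for either. In mutant cells Slc16a3 rose by 3.49 ± 0.07, which is 11.2-fold, and Slc16a1 by 0.27 ± 0.04.

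The kinases that inactivate pyruvate dehydrogenase did not move as one. Pdk1, the kinase induced in hypoxia, stood at 84.9, 89.0 and 88.0 CPM in WT mESCs and at 314.1, 327.4 and 302.3 CPM in WT EpiLCs, a log2 fold change of 1.85 ± 0.05 (edgeR adjusted p = 1.88e-67). In mutant cells it rose by 0.84 ± 0.05. Pdk3 ran from 51.3 to 53.7 CPM in WT mESCs and from 47.6 to 58.0 CPM in WT EpiLCs, and these ranges overlap. Pdk2 was low in all groups, at 6.17 to 8.09 CPM in WT mESCs and 4.01 to 4.90 CPM in WT EpiLCs, and fell by 0.65 ± 0.24 (edgeR adjusted p = 0.0121), a call that ended without WT mESC replicate 1 (0.0637) or WT EpiLC replicate 1 (0.051). Pdk4, the kinase induced in fasting, held 2.72 to 3.88 CPM in WT mESCs and 3.88 to 5.69 CPM in WT EpiLCs and did not pass the test in WT cells (log2 fold change 0.51 ± 0.29; edgeR adjusted p = 0.115). In mutant cells Pdk4 fell by 1.56 ± 0.31, which is 2.95-fold (edgeR adjusted p = 5.97e-06), and Pdk3 rose by 0.24 ± 0.08 (edgeR adjusted p = 0.0044). Pdk4 shares 101 bases at 98.0% identity with Cflar, which is in the table. The low level of Pdk4 is uncertain to that extent in every comparison. Pdha1, the catalytic subunit that these kinases phosphorylate, fell by 0.16 ± 0.05 in WT and by 0.44 ± 0.05 in mutant cells on the log2 scale.

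Of the bifunctional enzymes that set fructose 2,6-bisphosphate, Pfkfb2, known from heart, fell from 13.0, 17.6 and 18.1 CPM in WT mESCs to 8.47, 7.36 and 6.69 CPM in WT EpiLCs, a log2 fold change of -1.11 ± 0.17 (edgeR adjusted p = 6.46e-09). In mutant cells it fell by 1.29 ± 0.17. Pfkfb3, the form with the strongest kinase activity, and Pfkfb4, known from testis, did not pass the test in WT cells, with log2 fold changes of -0.03 ± 0.14 and -0.07 ± 0.27. In mutant cells Pfkfb3 rose by 0.48 ± 0.15, although its groups overlap, and Pfkfb4 fell by 0.76 ± 0.27. Eno3, the muscle enolase, rose by 0.46 ± 0.16 in mutant cells, and its call ended without mutant mESC replicate 2 (edgeR adjusted p = 0.257) or mutant EpiLC replicate 1 (0.112). Without mutant mESC replicate 3 the Pfkfb3 call ended (edgeR adjusted p = 0.0949), as it did without mutant EpiLC replicate 1 (0.073), and the Pfkfb4 call ended without mutant mESC replicate 2 (0.0769) or mutant EpiLC replicate 2 (0.0531). Eno2, the neuronal enolase, and Bpgm, the bisphosphoglycerate mutase of red cells, passed in no comparison, with Eno2 between 1.53 and 4.82 CPM and Bpgm between 27.6 and 36.3 CPM over all libraries.

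**Figure D3:**
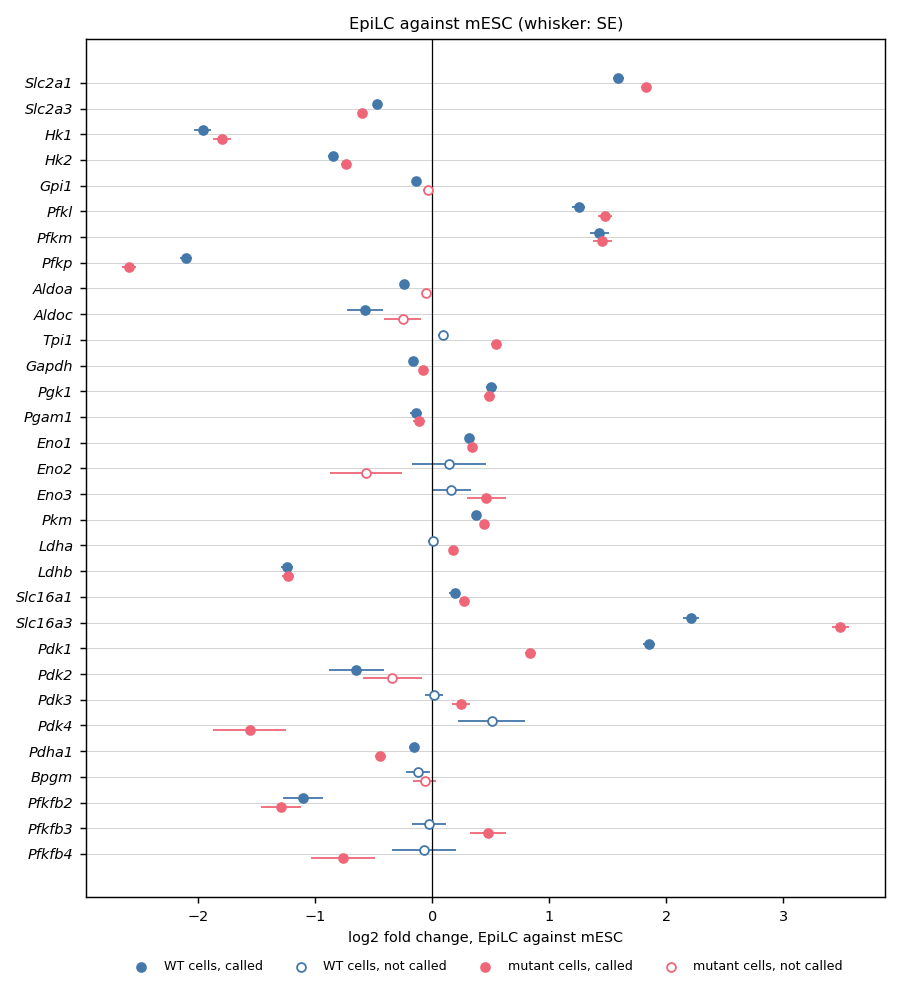
Log2 fold change of EpiLC against mESC for each gene in WT and in mutant cells (x axis; whiskers: SE from edgeR; filled: called, open: not called). Slc16a3, Pdk1, Slc2a1, Pfkm and Pfkl lie at the right and Pfkp, Hk1, Ldhb and Pfkfb2 at the left in both genotypes; Slc16a3 rose more and Pdk1 less in mutant cells.

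Mutant cells were compared with WT cells in mESCs to ask which of these genes differ with the form of EPOP. Most that differed were lower: 8 of the 31 fell, 1 rose and 22 did not pass, so 29.0% were called, beside 18.5% of all genes called, 8.4% higher and 10.1% lower (edgeR, adjusted p under 0.05). The median log2 fold change was -0.00 for the 31 genes and for all genes. The largest changes were in Slc16a3 and Pdk1, and none of the 31 reached 2-fold, beside 3.85% of all genes. The naive marker sum was lower in each mutant mESC library than in any WT mESC library, as was the epiblast-like sum, of whose 8 markers 4 fell, and their part in these differences was not tested.

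Slc16a3 stood at 14.5, 17.2 and 16.3 CPM in the mutant mESC libraries, all below the lowest WT library at 30.0 CPM. It fell by 0.93 ± 0.09 on the log2 scale, which is 1.91-fold (edgeR adjusted p = 2.75e-15). Pdk1 stood at 145.8, 134.7 and 136.0 CPM in mutant mESCs, all above the highest WT library at 89.0 CPM, and rose by 0.67 ± 0.05 (edgeR adjusted p = 1.01e-21). It was the only one of the 31 genes called higher in mutant mESCs. Hk1 stood at 115.0, 108.1 and 101.5 CPM in mutant mESCs and Pfkp at 263.9, 255.7 and 270.6 CPM, in each case below every WT library. Hk1 fell by 0.39 ± 0.06 (edgeR adjusted p = 3.3e-07) and Pfkp by 0.33 ± 0.05 (edgeR adjusted p = 3.64e-09).

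Smaller falls were seen in genes of high level. Aldoa stood at 943.4, 980.4 and 992.7 CPM in mutant mESCs against 1156, 1174 and 1145 CPM in WT mESCs. Ldha stood at 654.0, 651.0 and 665.5 CPM, Tpi1 at 298.7, 309.6 and 304.0 CPM, and Slc2a3 at 1397, 1404 and 1396 CPM. All 4 genes were below the WT range in each mutant library. The log2 fold changes were -0.25 ± 0.03 for Aldoa, -0.23 ± 0.04 for Ldha, -0.20 ± 0.04 for Tpi1 and -0.15 ± 0.03 for Slc2a3, with edgeR adjusted p from 1.93e-09 to 0.000323. Pfkfb3 also passed, at 15.0, 11.5 and 8.80 CPM against 16.8, 20.1 and 14.4 CPM in WT (log2 fold change -0.55 ± 0.15; edgeR adjusted p = 0.00391), but its groups overlap and the call ended without WT mESC replicate 2 (0.0898) or mutant mESC replicate 3 (0.101). Gapdh, Pgk1, Pgam1, Pkm, Ldhb and Bpgm had log2 fold changes within 0.03 of zero.

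In EpiLCs the same comparison gave 8 genes higher and 5 lower in mutant cells, with 18 that did not pass, so 41.9% were called, beside 15.8% of all genes called, 7.02% higher and 8.82% lower (edgeR, adjusted p under 0.05). The median log2 fold change was 0.03, against -0.00 for all genes. The genes that fell include both of the largest changes, Pdk4 and Pfkp, and the genes that rose include Slc16a3, Slc2a1 and Tpi1. Pdk4 alone changed at least 2-fold, beside 1.78% of all genes. None of the 8 rises exceeded the 1.27-fold of Slc16a3. The naive marker sum was lower, the epiblast-like marker sum higher and the endoderm marker sum lower in mutant than in WT EpiLCs, as given above, and their part in these differences was not tested.

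Slc2a1 stood at 568.0, 549.4 and 547.2 CPM in mutant EpiLCs, above the highest WT library at 470.0 CPM, while Slc2a3 stood at 929.1, 913.9 and 923.8 CPM, below the lowest at 1107 CPM. Slc2a1 rose by 0.29 ± 0.04 (edgeR adjusted p = 2.2e-09) and Slc2a3 fell by 0.27 ± 0.03 (edgeR adjusted p = 3.31e-11). Pfkp stood at 43.6, 44.8 and 42.4 CPM against 74.0, 84.8 and 71.1 CPM in WT EpiLCs and fell by 0.82 ± 0.06, which is 1.76-fold (edgeR adjusted p = 3.89e-22). Pfkl stood at 213.0, 192.5 and 196.9 CPM, above every WT library, and rose by 0.19 ± 0.05 (edgeR adjusted p = 0.00499), a call that ended without mutant EpiLC replicate 1 (0.11). Slc2a1 and Pfkl, both higher in EpiLCs than in mESCs, were thus higher again in mutant EpiLCs, whereas Pfkm differed by 0.08 ± 0.07 and did not pass. Hk1 and Hk2 differed by -0.22 ± 0.09 and 0.06 ± 0.04 and did not pass either (edgeR adjusted p = 0.0626 and 0.422).

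Slc16a3 stood at 188.1, 182.3 and 167.5 CPM in mutant EpiLCs, above the highest WT library at 148.9 CPM, and rose by 0.34 ± 0.06 (edgeR adjusted p = 5.51e-07). Tpi1 stood at 450.4, 446.3 and 430.0 CPM, above the highest WT library at 386.5 CPM, and rose by 0.25 ± 0.04 (edgeR adjusted p = 3.62e-07). Both genes had been lower in mutant mESCs. The other 4 rises were small: 0.15 ± 0.04 for Slc16a1, 0.11 ± 0.03 for Eno1, 0.10 ± 0.03 for Gapdh and 0.08 ± 0.03 for Pkm on the log2 scale, with edgeR adjusted p from 0.00913 to 0.0488. These 4 calls rest on single libraries. None of them passed without mutant EpiLC replicate 2, which left 4 of the 8 higher calls, and without WT EpiLC replicate 1 the calls on Eno1, Gapdh and Pkm ended, which left 5. The Slc16a1 call also ended without WT EpiLC replicate 3 (edgeR adjusted p = 0.0649), and the Pkm call ended without any 1 EpiLC library except mutant EpiLC replicate 3.

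Pdk1 stood at 241.0, 249.7 and 253.1 CPM in mutant EpiLCs, below the lowest WT library at 302.3 CPM, and fell by 0.34 ± 0.05 (edgeR adjusted p = 4.17e-10). Pdk4 stood at 1.22, 2.43 and 1.61 CPM against 5.69, 4.50 and 3.88 CPM in WT EpiLCs and fell by 1.44 ± 0.32, which is 2.72-fold (edgeR adjusted p = 0.000296). Pdha1 stood at 178.3, 184.9 and 184.6 CPM against 217.2, 218.7 and 222.4 CPM and fell by 0.27 ± 0.05 (edgeR adjusted p = 3.12e-06). The groups are separate for all 3. Exons of Pdha1 share 16.1% of their bases with Map3k15 on the opposite strand, and Map3k15 also fell in mutant EpiLCs, by 0.24 ± 0.06 (edgeR adjusted p = 0.002), so reads of the 2 genes cannot be told apart if counting ignored strand.

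The mutant effects in the 2 states were then compared directly, as the effect in EpiLCs minus that in mESCs. The difference passed for 9 of the 31 genes, 5 higher and 4 lower, beside 9.73% of all genes, 4.68% higher and 5.05% lower (edgeR, adjusted p under 0.05). It was at least 2-fold for 3, Pdk4, Slc16a3 and Pdk1, beside 2.44% of all genes. For 3 genes, Slc16a3, Pdk1 and Tpi1, the effect passed in both states with opposite signs, 9.68% of the 31 beside 0.908% of all genes. Slc16a3 had a difference of 1.27 ± 0.11 (edgeR adjusted p = 4.46e-19), since it was lower in mutant mESCs and higher in mutant EpiLCs. Pdk1 did the reverse, with -1.01 ± 0.07 (edgeR adjusted p = 1.12e-25). Tpi1 had 0.45 ± 0.06 (edgeR adjusted p = 3.26e-10), in the direction of Slc16a3.

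For Pfkp the effect was in the same direction and larger in EpiLCs, with a difference of -0.49 ± 0.08 (edgeR adjusted p = 6.92e-07). Pdk4 had the largest difference, -2.07 ± 0.43 (edgeR adjusted p = 0.000164). In mutant mESCs Pdk4 held 5.01, 3.64 and 6.68 CPM, and its effect there of 0.63 ± 0.28 did not pass. Pdha1 (-0.29 ± 0.06), Slc2a1 (0.24 ± 0.06), Aldoa (0.19 ± 0.05) and Ldha (0.17 ± 0.05) complete the 9, each with an effect called in 1 state. The Ldha difference ended as a call without WT mESC replicate 3 (edgeR adjusted p = 0.0528), mutant mESC replicate 2 (0.0519) or mutant EpiLC replicate 2 (0.126). For Slc2a3 the effect was lower in mutant cells of both states and its difference of -0.12 ± 0.05 did not pass (edgeR adjusted p = 0.0746).

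**Figure D4:**
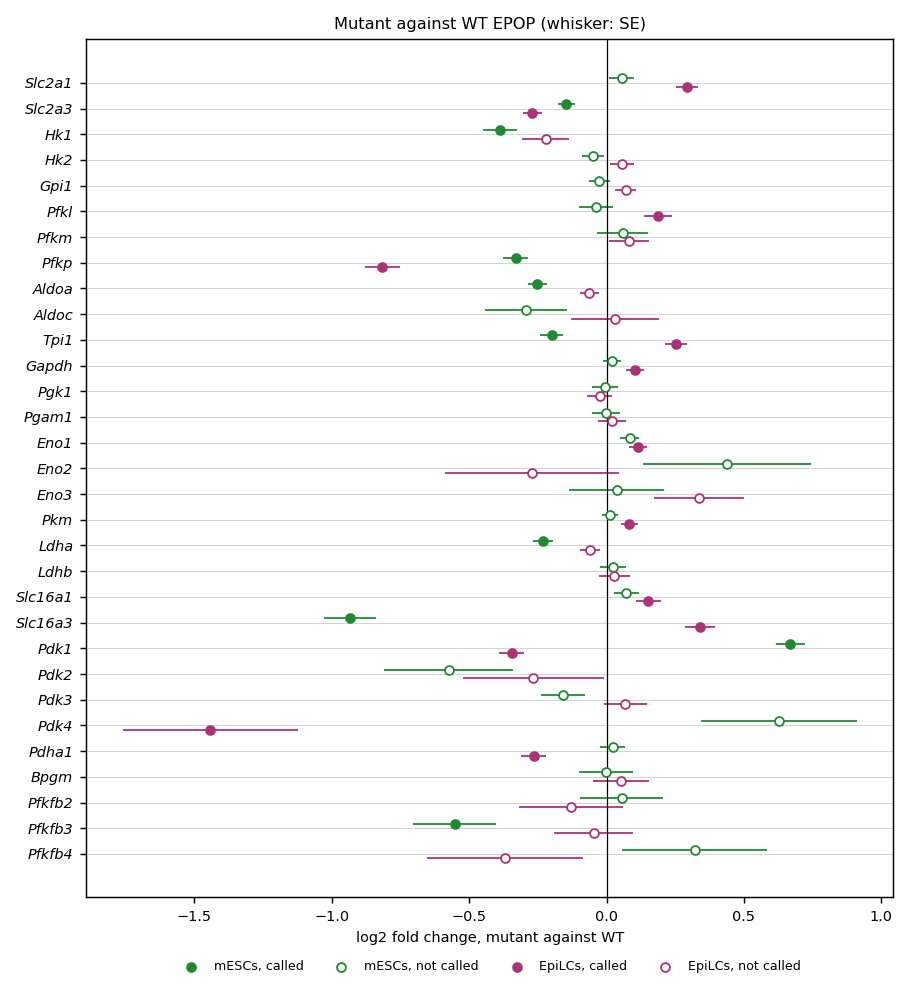
Log2 fold change of mutant against WT for each gene in mESCs and in EpiLCs (x axis; whiskers: SE from edgeR; filled: called, open: not called). Slc16a3, Pdk1 and Tpi1 have filled points on both sides of zero, Pfkp has both at the left, and Pdk4 in EpiLCs lies farthest left at -1.44.

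Isoenzyme make-up was described as each gene's share of the summed TPM of its family, which compares genes per length. The gene lengths behind the authors' TPM are not stated, and the level of each share rests on them. From CPM, without length, Slc16a3 held a mean of 13.0% of its family in WT mESCs and 37.8% in WT EpiLCs, and Pdk1 rather than Pdk3 led the kinases in WT mESCs, at 58.2% against 34.9%. The same shares passed from CPM as from TPM, 14 for state and 6 for genotype (exact permutation test). The largest shift between states was in phosphofructokinase. Pfkp held 72.3, 72.5 and 74.4% of the family in WT mESCs and 18.99, 22.1 and 19.5% in WT EpiLCs, and Pfkl went from 18.2, 19.1 and 17.9% to 53.4, 50.8 and 53.0%. The leading phosphofructokinase thus changed from the platelet to the liver form in all libraries. Averaged over genotypes, the Pfkp share fell by 54.9 percentage points. In an exact permutation test of 400 relabellings within genotype this gave p = 0.005, the smallest p possible, and 0.01125 after Benjamini-Hochberg adjustment over 36 share tests.

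Slc16a3 held 20.7, 20.4 and 20.4% of the 2 lactate carriers in WT mESCs, 10.3, 12.1 and 11.6% in mutant mESCs, 51.0, 51.6 and 50.6% in WT EpiLCs and 56.2, 54.3 and 52.4% in mutant EpiLCs. Slc2a1 held 13.4, 12.6 and 13.0% of the 2 glucose carriers in WT mESCs and 38.2, 39.3 and 38.1% in WT EpiLCs. Ldhb held 29.8, 29.4 and 29.6% of lactate dehydrogenase in WT mESCs and 14.0, 15.9 and 15.3% in WT EpiLCs. In each of these families the states do not overlap. Ldhb shares 1002 bases at 98.0% identity with 1 annotated gene that is not in the table, while Ldha has no such near copy. The level of the Ldhb share is uncertain to that extent. Hk1 held a mean of 26.7% of the 2 hexokinases in WT mESCs and 14.3% in WT EpiLCs, so both fell and Hk1 fell further. In the kinase family the mean TPM share of Pdk1 rose from 35.7% to 67.1% and that of Pdk3 fell from 55.6% to 29.2% in WT cells, although the Pdk3 level itself overlapped between states. Aldoa and Eno1 held over 98% of their families in all groups. In all, 14 of 18 shares passed for state at an adjusted p under 0.05 (exact permutation test).

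Between genotypes 6 of 18 shares passed the same exact permutation test. The Slc2a1 share was 5.60 points higher in mutant cells, averaged over states, with 1.66 points in mESCs and 9.53 in EpiLCs, and reached 48.5, 48.1 and 47.7% in mutant EpiLCs. The Pfkp share fell by 6.69 points (a difference of -4.67 in mESCs and -8.71 in EpiLCs), to 11.2, 12.0 and 11.3% in mutant EpiLCs, and the Pfkl share was 4.90 points higher (2.72 in mESCs and 7.08 in EpiLCs). The Hk1 share fell by 3.24 points (a difference of -4.27 in mESCs and -2.21 in EpiLCs) and the Ldha share fell by 2.32 points (exact permutation, adjusted p = 0.01125 and 0.02). For Ldha the share fell by 3.81 points in mESCs, while in EpiLCs it differed by -0.82 points and the libraries of the genotypes overlapped, at 84.1 to 86.0% and 83.8 to 84.7%. The Pfkm share was 1.79 points higher with an adjusted p of 0.045 by exact permutation, which ended as a call without WT mESC replicate 2 or 3, any mutant mESC replicate or any WT EpiLC replicate (adjusted p = 0.054 to 0.081), where fewer relabellings exist. The Slc16a1, Pdk1 and Pdk3 shares moved in opposite directions in the 2 states, and averaged over states they did not pass (exact permutation, adjusted p = 0.233, 0.227 and 0.558).

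**Figure D5:**
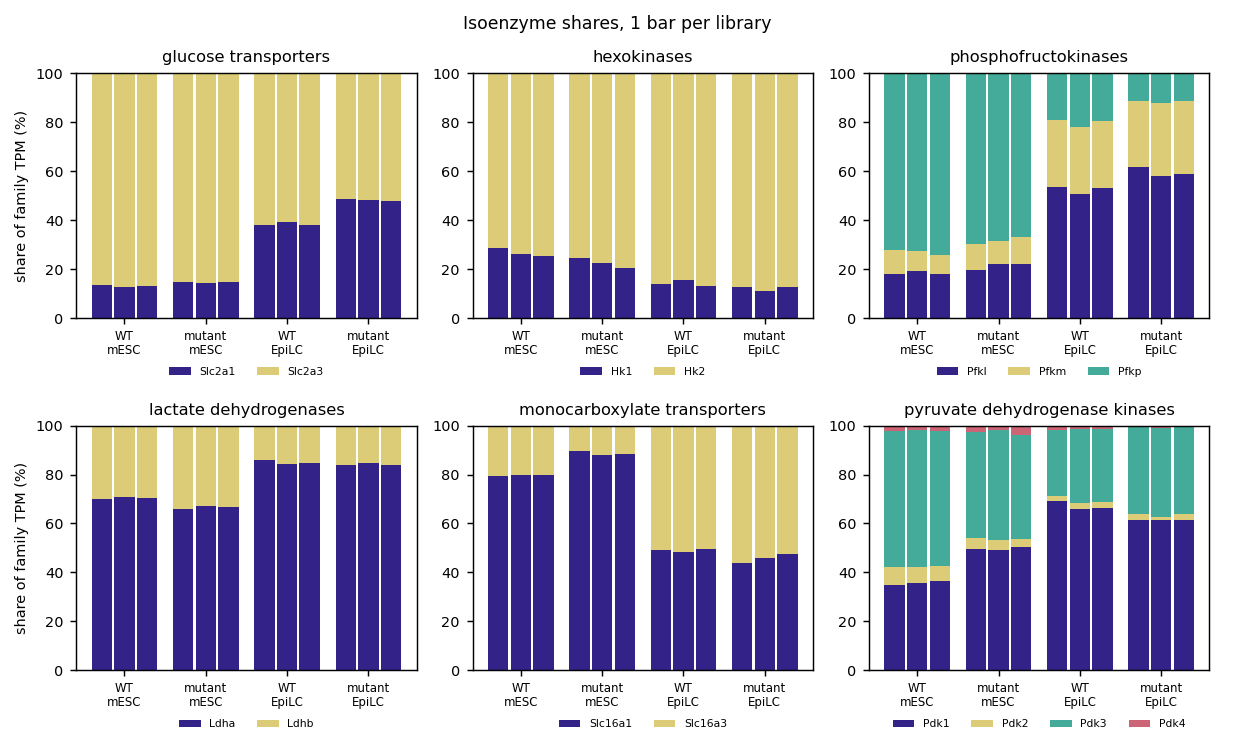
Share of each isoenzyme in the summed TPM of its family (y axis, percent) in each of the 12 libraries (1 bar per library). Pfkp leads phosphofructokinase in mESCs and Pfkl in EpiLCs, the Slc2a1 share runs from 13.0% in WT mESCs to 48.1% in mutant EpiLCs on average, and Slc16a3 makes up about equal parts with Slc16a1 in EpiLCs.

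Neighbouring pathways, as lists of genes chosen by function, were read from the same fit. Of 21 hypoxia response genes outside glycolysis, 13 rose and 4 fell between states in WT cells, and 11 rose and 4 fell in mutant cells. That is 81.0% and 71.4% of the list, beside 62.7% and 66% of all genes. Egln3, a prolyl hydroxylase that marks hypoxia-inducible factors for destruction and is itself induced by them, rose from 7.97 ± 0.72 to 60.5 ± 4.8 CPM (SD, n = 3) in WT cells. Car9, a carbonic anhydrase and standard hypoxia marker, rose from 0.527 ± 0.24 to 4.03 ± 0.68 CPM. Abundant genes of the list went both ways. Hif1a went from 176.1 ± 7.6 to 266.5 ± 12.6 CPM and Epas1 from 50.6 ± 5.6 to 241.6 ± 8.2 CPM in WT cells. Kdm3a, among the 4 that fell, stood at 127.7 ± 6.5 CPM in WT EpiLCs against 362.1 ± 6.3 CPM in WT mESCs. Vegfa was lower as well, at 40.0 ± 1.3 against 85.5 ± 7.3 CPM. In mutant against WT mESCs 1 of the 21 rose and 7 fell, 38.1% beside 18.5% of all genes, including P4ha2, a collagen prolyl hydroxylase, from 6.21 ± 0.63 to 2.38 ± 0.71 CPM. In mutant against WT EpiLCs 1 rose (Car9, to 8.29 ± 1.1 CPM) and 5 fell, 28.6% beside 15.8% of all genes, including Ndrg1, a stress-induced gene, from 8.84 ± 0.42 to 2.63 ± 0.58 CPM.

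The other 4 lists had 52.9 to 66.7% of their tested genes called between states in WT cells, beside 62.7% of all genes, and their counts are given as a description. Of 17 tested further isoenzymes and carriers, 8 rose and 1 fell between states in WT cells, with Emb, an accessory protein of the lactate carriers, going from 39.4 ± 1.9 to 99.5 ± 5.7 CPM. In mutant against WT EpiLCs 2 of the 17 rose and 0 fell, 11.8% beside 15.8% of all genes. These were Emb and Bsg, the other accessory protein, at log2 fold changes of 0.21 ± 0.06 and 0.14 ± 0.04 (edgeR adjusted p = 0.00932 and 0.0111). Of 9 genes of the pyruvate dehydrogenase complex and the mitochondrial pyruvate carrier, 2 rose and 3 fell between states in WT cells. Mpc1, a subunit of that carrier, fell from 7.65 ± 0.88 to 4.43 ± 1.5 CPM, and Pdp2, a phosphatase that reactivates pyruvate dehydrogenase, fell from 52.6 ± 4.4 to 30.2 ± 3.0 CPM. In mutant EpiLCs 1 of the 9 fell, 11.1% beside 15.8% of all genes, which was Mpc2, from 10.8 ± 1.6 to 7.05 ± 0.43 CPM. Of 7 pentose phosphate genes 2 rose and 2 fell between states in WT cells, and 3 rose and 0 fell in mutant against WT EpiLCs (42.9% beside 15.8% of all genes), with Pgd, the 6-phosphogluconate dehydrogenase, going from 182.4 ± 3.2 to 209.3 ± 1.5 CPM. Of 12 tested genes of gluconeogenesis and glycogen, 5 rose and 3 fell between states in WT cells. Gbe1, the glycogen branching enzyme, rose from 4.80 ± 0.24 to 10.5 ± 1.1 CPM, and Pck2, the mitochondrial phosphoenolpyruvate carboxykinase, fell from 103.0 ± 6.4 to 52.0 ± 0.50 CPM. Pgm2, a phosphoglucomutase, was lower in mutant mESCs, at 11.4 ± 2.2 against 20.3 ± 2.2 CPM.

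The authors' deposited table of fold changes, at a false discovery rate under 0.05, holds 9 of the 31 genes as positive and 13 as negative for EpiLC against mESC in WT cells, 14 and 12 in mutant cells, and 8 and 5 for mutant against WT in EpiLCs. No such values for the genotypes in mESCs were used here. The share of all genes passing in the deposited table was not computed, so these counts are a description only.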

How the data were processed

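Raw counts for each gene, as deposited, were the starting point. The submitters' processing notes list edgeR 3.18.1, featureCounts, Subread, STAR 2.5.3a and FastQC 0.11.2 and the build mm10, and whether featureCounts used strand was not stated there. Deposited CPM columns (a score: counts over effective library size) were left aside. Levels per length and isoenzyme shares came from the TPM columns that the authors deposited. Only the number of calls was taken from the log2 fold changes and p-values that the authors deposited.

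Of 19656 features, 26 carry spreadsheet dates in place of symbols (0.182 to 0.212% of a library's counts) and entered neither library sizes nor tests. Genes passing filterByExpr were normalised by TMM, with factors between 0.98 and 1.01, and compared by the quasi-likelihood test of edgeR 4.0.16 in R 4.3.3, in 1 fit to all 12 libraries with 8 residual degrees of freedom, and Benjamini-Hochberg adjustment over 13879 genes, with calls at 0.05. The biological coefficient of variation was 4.57%. CPM in the text were computed from counts and effective library sizes. Shares were compared by a two-sided exact permutation test within strata. No library was a copy of another: replicate pairs had a chi-square of 1.91 to 3.09 for each degree of freedom. The steps were tested on simulated data.

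Gene positions and exon overlaps came from GENCODE M21, near-identical stretches (at least 97% over 100 bases) from blastn 2.17.0, and promoter windows from RefSeq. Genes named in full were, by rule, those called with separate groups, largest change first, and the isoenzymes of each family. For the other lists, the 2 called genes with the largest change and a mean of at least 2 CPM were eligible. Kdm3a and Vegfa were named outside this rule, as hypoxia response genes lower in EpiLCs. Hif1a and Epas1 were named outside it as well, as abundant genes of that list higher in EpiLCs. The 31 genes and the lists were chosen with earlier results of these data known. As alternatives, DESeq2 1.42.0, limma-voom (limma 3.58.1), relative log expression scaling, other count filters, fits to only the groups compared, a replicate block, a threshold of 0.01, leaving out each library and shares without length were run.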

Additional observations from a re-analysis of the deposited data

Results flagged for a closer look

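For 9 genes the mutant effect in EpiLCs differed from that in mESCs in the edgeR test of the difference itself. On the log2 scale the differences, EpiLC effect minus mESC effect, were 1.27 for Slc16a3, 0.45 for Tpi1, 0.24 for Slc2a1, 0.19 for Aldoa and 0.17 for Ldha, and -2.07 for Pdk4, -1.01 for Pdk1, -0.49 for Pfkp and -0.29 for Pdha1. For 3 shares every mutant library moved one way against WT in mESCs and the other way in EpiLCs. The mutant minus WT share in EpiLCs less that in mESCs was -12.3 percentage points for Slc16a1, -19.6 for Pdk1 and 18.5 for Pdk3, and these 3 differences between states were not tested. The naive, epiblast-like and endoderm marker sums did not overlap between mutant and WT libraries in either state, and their part in these results was not tested.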

How the results depend on the processing

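Of 78 calls on single genes at an adjusted p under 0.05, 64 were made under every alternative in which the gene was tested. Under at least 1 alternative 14 were lost, and 0 reversed. The alternative with the fewest tested held 28 of the 31 genes, and a gene untested there was not counted as lost. In mESCs 2 of the 31 genes were higher in mutant cells with limma-voom, against 1, and 1 to 2 when 1 library was left out. In EpiLCs the count higher ran from 4 to 8 when 1 library was left out. Calls over all genes, in either direction, then also dropped. They were 1948 to 2286 in mESCs, against 2574, and 1665 to 1988 in EpiLCs, against 2198. At an adjusted p under 0.01, the calls over all genes were 1588 in mESCs, 1364 in EpiLCs and 809 for the difference of effects. Of 20 share calls, 2 were lost, both only when 1 library was left out, where fewer relabellings exist: the Aldoa share between states (0.198 to 0.286 points) and the Pfkm share between genotypes (1.56 to 2.22 points). The Pdk2 share between genotypes passed without mutant EpiLC replicate 1, at -1.56 points, within a range of -1.62 to -1.19 points over the libraries left out. The Pkm call in EpiLCs was also lost with relative log expression factors, without a filter and in a fit to the compared groups (adjusted p = 0.0509 to 0.0744), and the Pgam1 call between states in mutant cells with relative log expression factors, DESeq2 and a filter of 5 CPM (0.0545 to 0.068). The same-numbered libraries did not deviate together (correlations of -0.04 to 0.03 over 18 pairs). The main fit did not pair them, and this check cannot exclude a weak shared effect. With the replicate block 1 gene was higher and 8 lower in mutant mESCs, 8 and 6 in mutant EpiLCs, 5 and 4 for the difference of effects, 9 and 13 between states in WT cells and 14 and 11 in mutant cells. The added call is Hk1 in mutant EpiLCs (adjusted p = 0.0477). Depth limits Eno2, Pdk2, Pdk4 and Pfkfb4, which stayed under 10 CPM in every library.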
